A study of Rattus norvegicus with 4 samples.

Results

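The Fos and Jun genes, which encode the subunits of the transcription factor AP-1, were followed in rat adrenal medulla after immobilization stress. The members were Fos, Fosb, Fosl1 and Fosl2 of the Fos family and Jun, Junb and Jund of the Jun family, taken as a gene family and matched by symbol in the array's annotation. All 7 were among the 14217 genes that the annotation names singly, and they had 13 probe sets, 6 for the Fos family and 7 for the Jun family. A probe set is a group of short probes that together report on a transcript. Total RNA was measured on 4 single-colour oligonucleotide arrays, 2 from rats immobilized for 2 h and 2 from unstressed rats. The rats' strain, sex and age, any genotype, the number of animals behind each array, and whether immobilization was repeated are not given in the sources used here. The p-values therefore measure the spread between these arrays, which may be technical.

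AP-1 is a dimer held together by leucine zippers. Jun proteins can pair with each other or with Fos proteins, whereas Fos proteins need a Jun partner to bind DNA. Fos, Fosb and Junb are classical immediate early genes, switched on within minutes by calcium, cAMP and growth factor signals without new protein synthesis. Fosl1 and Fosl2 usually follow more slowly, and Jund is regarded as the most constantly expressed Jun gene. In chromaffin cells of the medulla, which release adrenaline and noradrenaline, AP-1 is known as a factor that binds the promoter of the tyrosine hydroxylase gene.

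Values are the deposited linear intensities, and changes are differences of log2(intensity + 16), immobilized minus unstressed, with the SE of limma's fit over all 18625 probe sets that passed a filter on dim ones. Adjusted p-values are Benjamini-Hochberg values from that fit, with a threshold of 0.05. The arrays had median intensities of 864 and 827 in the immobilized group and 955 and 911 in the unstressed group. Bacillus transcripts, absent from rat tissue, are the target of 27 control probe sets, which lay between 2.18 and 257. A reading at or below the highest of them on the same array is described as within the control range. The chromaffin markers Th, Dbh, Pnmt, Chga and Chgb had differences of -0.09 to 0.36 and did not pass the test. Of the 7 chromaffin markers on the array 1 rose, Slc18a2. The tissue also held adrenal cortex RNA: the intensities of the 5 cortical markers measured (Cyp11a1, Cyp11b1, Cyp21a1, Star and Nr5a1) summed to 220088 and 167936 on the immobilized arrays and 202038 and 234972 on the unstressed arrays, and none of them was within the control range. Of the 5, Nr5a1 rose by 0.47, a call absent without the filter, and none fell. Cyp11a1, Cyp21a1 and Star were also brighter than that Jun probe set, and the part of this in their values was not tested. Nr5a1 was dimmer, as was Cyp11b1, which did not pass. Among Schwann and sustentacular markers Gfap rose by 1.76 and S100b fell by 0.59 on the log2 scale, and among endothelial markers Flt1 rose by 1.45 and Kdr fell by 0.79 on their brightest probe sets, where the others had 0.06 and 0.14 for Flt1 and -0.04 for Kdr. Of 6 macrophage and 6 fibroblast markers, and of the 2 blood markers tested, 0 rose and 0 fell on their brightest probe sets. For scale, 33% of all tested genes were called, 11.2% as rises and 21.8% as falls. The other probe set of the leukocyte marker Ptprc had -2.01, and that of the macrophage marker Aif1 had 0.37. Summed intensities of the brightest probe sets overlapped between the groups for each of these marker lists except the endothelial one. That list had 29652 and 30361 in the immobilized group and 32121 and 40957 in the unstressed group. The part of the cortex and of the other cell types in the results below was not tested. In whole tissue, more cells of a type cannot be told apart from more RNA per cell.

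The stretches just upstream of the annotated transcription starts were searched for the core letters of the cAMP response element (CRE), a motif bound by CREB family factors. They come from RefSeq's GRCr8 assembly. Windows were used for the 5 members Fosb, Fosl1, Fosl2, Junb and Jund, and those of Fos and Jun were not used here. Each covers the 250 bases before the start. On either strand, the core TGACG was found in 3 of the 5 windows, those of Fosl1, Junb and Jund, and 18.2% of all 33469 windows hold it. The full CRE, TGACGTCA, was found in the Jund window only, and 1.59% of all windows hold it. The AP-1 site TGANTCA and the CArG box bound by serum response factor were in none of the 5 windows, against 6.34% and 1.5% of all windows. The full CRE contains the core on both strands, so its matches overlap. The windows of the 3 genes with a match are printed 5′ to 3′ along the gene's strand, with each core in capitals (CGTCA where it lies on the opposite strand).
Fosl1, chr1:212183635-212183884, plus strand: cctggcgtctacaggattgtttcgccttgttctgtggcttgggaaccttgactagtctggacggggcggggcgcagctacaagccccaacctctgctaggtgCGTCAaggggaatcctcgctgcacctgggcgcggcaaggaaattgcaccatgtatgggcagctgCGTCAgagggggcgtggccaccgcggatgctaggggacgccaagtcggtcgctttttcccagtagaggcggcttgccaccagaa
Junb, chr19:40080876-40081125, plus strand: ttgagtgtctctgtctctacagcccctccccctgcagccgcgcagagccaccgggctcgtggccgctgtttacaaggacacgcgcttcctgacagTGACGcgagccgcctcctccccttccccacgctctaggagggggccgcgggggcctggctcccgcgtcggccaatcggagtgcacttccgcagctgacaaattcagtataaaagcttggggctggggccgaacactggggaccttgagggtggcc
Jund, chr16:18769772-18770021, minus strand: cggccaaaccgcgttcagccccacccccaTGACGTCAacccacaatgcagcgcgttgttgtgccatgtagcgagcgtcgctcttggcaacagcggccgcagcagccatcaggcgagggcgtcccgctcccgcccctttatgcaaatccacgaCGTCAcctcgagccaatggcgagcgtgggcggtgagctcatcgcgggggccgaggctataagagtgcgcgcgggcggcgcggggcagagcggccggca
The cores began 148 and 84 bases before the start in Fosl1, 155 before it in Junb, and 221, 218 and 98 before it in Jund. A match of letters is a description and does not show that a factor binds there. Nor does the lack of a match in a window of 250 bases show that the gene lacks the motif elsewhere. Among the 5 genes, the core was present in the windows of 2 that rose in the measurements below, Fosl1 and Junb. It was absent from the windows of 2 that rose, Fosb and Fosl2. Jund, with 3 cores and the full CRE, had a difference of -0.09 and did not pass the test.

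All 4 Fos family genes and Junb were higher in immobilized than in unstressed medulla, and no member fell. Counted by gene, through the brightest probe set of each, 5 of 7 rose, 0 fell and 2, Jun and Jund, did not pass the test. The background was large: of the 10320 genes tested this way 33% were called, 11.2% as rises and 21.8% as falls. By gene without the filter 5 of 7 rose and 0 fell, against 21.4% of 14217 genes called, 7.56% as rises and 13.9% as falls. Without the filter, 7 of the 13 probe sets rose and 0 fell, where 17.3% of all 31042 probe sets were called, 6.69% as rises and 10.6% as falls. With the filter 7 of the 11 probe sets tested rose and 0 fell, where 31.1% of probe sets were called, 11.7% as rises and 19.4% as falls. That count is no support on its own, since 3 genes, Fos, Fosb and Fosl1, passed the filter through their immobilized values. Groups did not overlap at 8 of the 13 probe sets, as was the case for 59.1% of all probe sets and 67.8% of those past the filter. The median change over the 7 genes was 3.06, beside -0.14 over all tested genes.

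**Figure D1:**
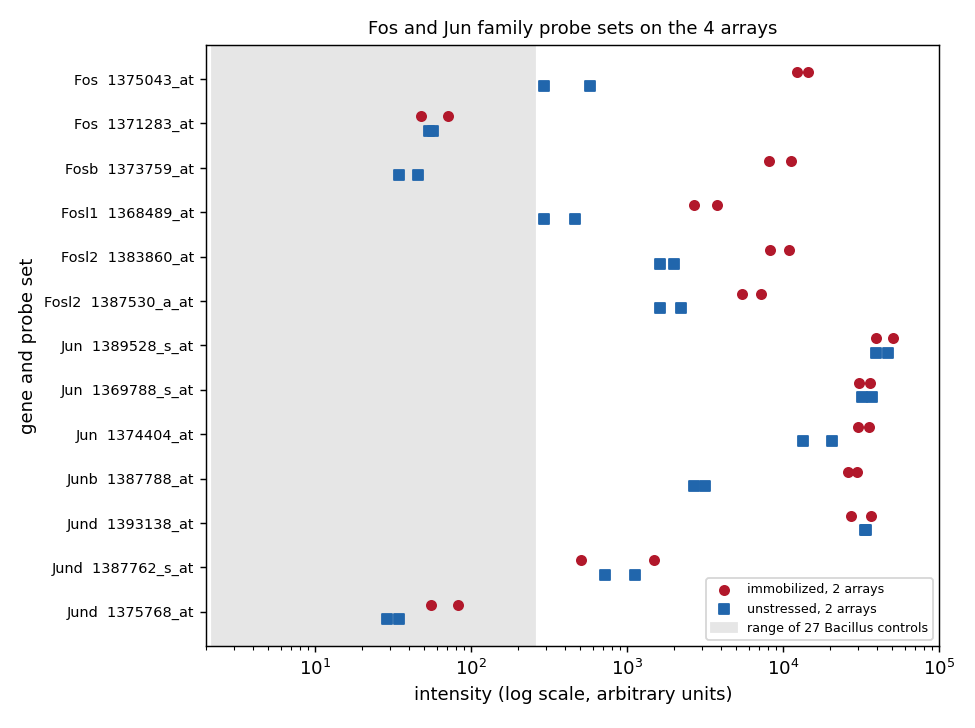
Intensity (log scale, arbitrary units) of each Fos and Jun family probe set on the 2 immobilized arrays (red circles) and the 2 unstressed arrays (blue squares), with the range of the 27 Bacillus controls, 2.18 to 257, in grey. Fosb is in the grey range on both unstressed arrays and at 8073 and 11293 on the immobilized arrays, whereas the brightest Jun and Jund probe sets overlap between groups.

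Fosb, whose protein and its truncated form dimerize with Jun proteins, showed the widest separation of the 7 genes. Its probe set read 8073 and 11293 on the immobilized arrays and 34.5 and 45.4 on the unstressed arrays. Both unstressed readings were within the control range, so the baseline was not shown to lie above background and the size of the rise is a lower bound. Against the highest control reading of each unstressed array, Fosb was at least 46.3-fold higher in the immobilized group. The fitted log2 difference was 7.42 ± 0.26 (SE, n = 2 per group; adjusted p = 3.79e-05 in limma).

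Fos, the founding member and the usual readout of acute activation, had 2 probe sets that disagreed. The brighter, 1375043_at, read 12288 and 14407 on the immobilized arrays and 574 and 291 on the unstressed arrays. Both unstressed readings were above the control range. On the log2 scale they were 0.94 apart, against 0.23 for the immobilized pair. The log2 change was 4.97 ± 0.31, or 31.3-fold, with a 95% interval of 4.24 to 5.70 (adjusted p = 1.69e-04 in limma). The other, 1371283_at, read 71.0 and 47.6 on the immobilized arrays and 53.5 and 57.0 on the unstressed arrays. All 4 of those readings were within the control range, it lay under the filter, and it gives no information on the level of Fos.

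Fosl1, which encodes Fra-1, a Fos protein without the strong transactivation domain of Fos, read 2695 and 3786 on the immobilized arrays. On the unstressed arrays it read 294 and 465, above the control range. The groups were well apart, with a log2 change of 3.06 ± 0.30, or 8.32-fold (95% interval 2.35 to 3.76, adjusted p = 8.81e-04 in limma).

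Fosl2, which encodes the related Fra-2, rose on both of its probe sets. On 1383860_at it read 8276 and 10897 in the immobilized group and 1627 and 1990 in the unstressed group, a log2 change of 2.39 ± 0.19 or 5.24-fold (adjusted p = 3.76e-04 in limma). On 1387530_a_at, where the suffix marks probes shared by several transcripts of the gene, it read 5474 and 7234 in the immobilized group and 1632 and 2206 in the unstressed group. That probe set changed by 1.72 ± 0.21 on the log2 scale, or 3.30-fold (adjusted p = 0.00194 in limma). Within each array, the first minus the second probe set was 0.60 and 0.59 on the log2 scale in the immobilized group and -0.00376 and -0.15 in the unstressed group. The direction was shared and the size was not: the first probe set changed by 0.67 more. The smallest p that 2 arrays a group allow in an exact permutation test, two-sided, is 0.333, and this difference was not tested.

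**Figure D2:**
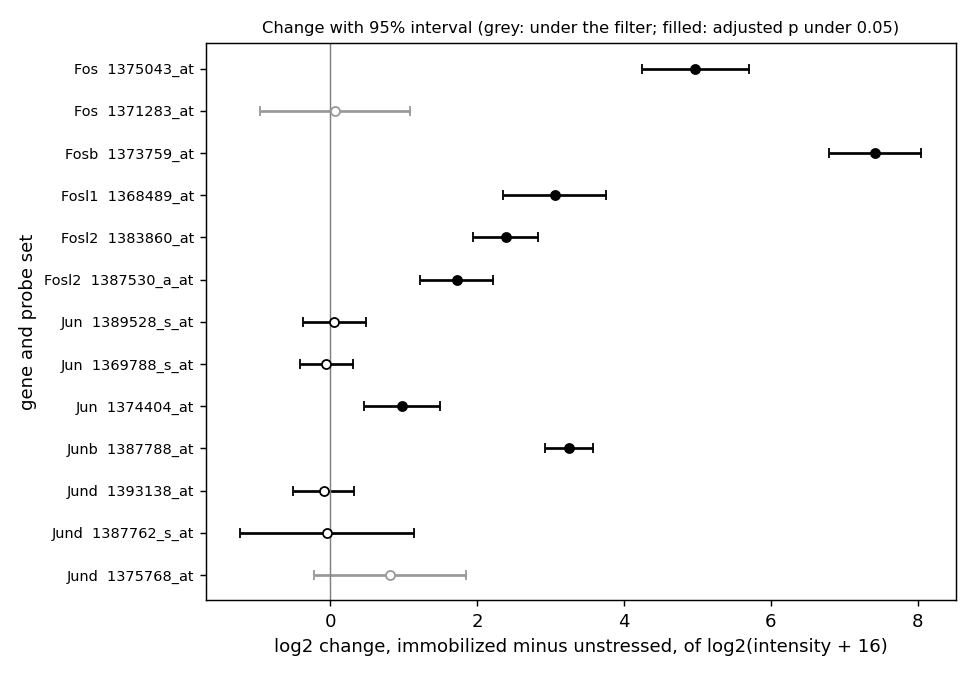
Log2 change, immobilized minus unstressed, of each Fos and Jun family probe set with its 95% interval from limma; filled points have an adjusted p under 0.05 and grey ones lay under the filter. The Fos family and Junb lie between 1.72 and 7.42 apart from the dim Fos probe set, while the Jun and Jund probe sets other than 1374404_at have intervals that include 0.

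Junb, which encodes a Jun protein that often restrains Jun activity in dimers, was the Jun family gene with a clear change. It read 29601 and 26030 on the immobilized arrays and 2673 and 3150 on the unstressed arrays. The log2 change was 3.25 ± 0.14, or 9.52-fold, with a 95% interval of 2.92 to 3.58 (adjusted p = 5.83e-05 in limma). The replicates were close, 0.19 apart on the log2 scale in the immobilized pair and 0.24 in the unstressed pair.

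Jun, which encodes c-Jun, the founding Jun protein, had 3 probe sets that disagreed. On 1389528_s_at it read 50721 and 39130 in the immobilized group and 39444 and 46639 in the unstressed group. On 1369788_s_at it read 35934 and 30626 in the immobilized group and 31928 and 37126 in the unstressed group. The groups overlapped on both, with log2 differences of 0.05 (95% interval -0.38 to 0.48) and -0.05 (-0.42 to 0.31).

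The remaining Jun probe set, 1374404_at, read 35229 and 30181 on the immobilized arrays and 13311 and 20579 on the unstressed arrays. The groups did not overlap there, and it rose by 0.98 ± 0.22 on the log2 scale, or 1.97-fold (adjusted p = 0.0161 in limma). Leaving out immobilized 1 ended that call (adjusted p = 0.106 in limma), as did leaving out immobilized 2 (0.0715). The brightest probe set minus 1374404_at, within each array, was 0.53 and 0.37 in the immobilized group and 1.57 and 1.18 in the unstressed group. The suffix _s_at marks probes that match more than 1 transcript, which holds for both of the Jun probe sets that did not pass. Whether Jun mRNA changed is thus not settled by these probe sets.

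Jund, the Jun gene usually described as constitutive, had no probe set past the test. The brightest, 1393138_at, read 36691 and 27032 on the immobilized arrays and 33392 and 33717 on the unstressed arrays. Both unstressed readings lay between the immobilized ones, with a log2 difference of -0.09 ± 0.17 (95% interval -0.51 to 0.32). On 1387762_s_at the immobilized arrays read 1488 and 504 and the unstressed arrays 1123 and 716, a difference of -0.05 with an interval of -1.23 to 1.13. That interval is wide, and the immobilized readings enclosed both unstressed ones. The third, 1375768_at, read 81.9 and 55.2 on the immobilized arrays and 34.5 and 28.7 on the unstressed arrays, all within the control range and under the filter.

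The bright Jun and Jund probe sets that did not pass lay where differences between the groups were small in general. Among the 200 tested probe sets nearest in level to Jun's 1389528_s_at, the SD of the log2 change was 0.196 and 3.0% were called. Around Jund's 1393138_at the SD was 0.312 and 8.0% were called. Around Jun's 1374404_at, the bright probe set that rose, the SD was 0.496 and 19% were called. Around Junb it was 0.667 with 33.5% called, around Fos's 1375043_at 0.92 with 39.5%, and around Fosb 0.997 with 22.5%. The part of this narrowing at the bright end in the Jun and Jund values was not tested.

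**Figure D3:**
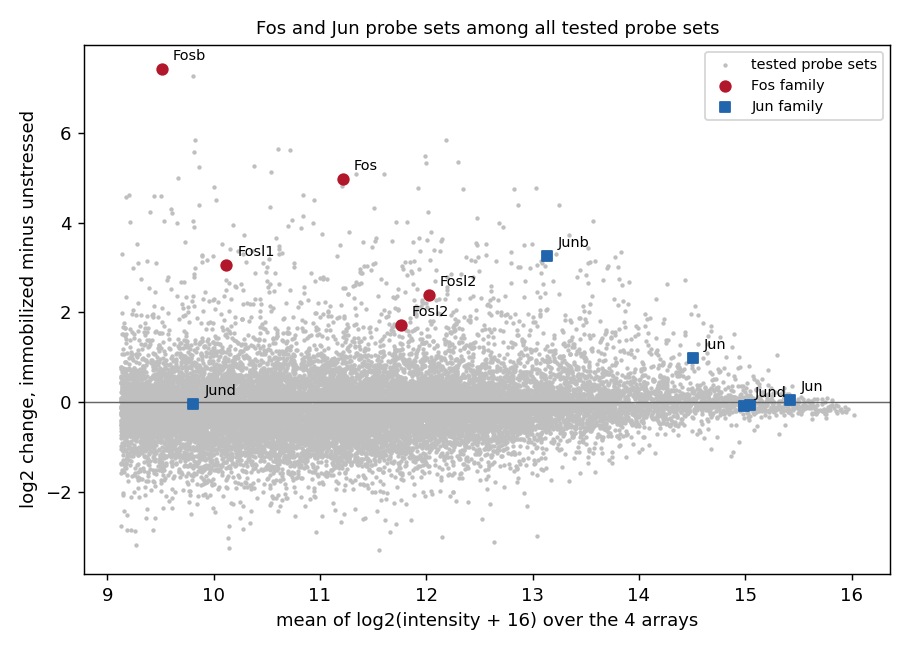
Log2 change, immobilized minus unstressed, against the mean of log2(intensity + 16) over the 4 arrays, for all 18625 tested probe sets (grey), the Fos family (red circles) and the Jun family (blue squares). The spread of the grey points narrows at the right, where the Jun and Jund probe sets that did not pass lie, apart from the dimmer Jund probe set near 0 at the left.

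For each member that rose, the 3 genes closest to it were taken by the Euclidean distance between their 4 values of log2(intensity + 16), each set minus its unstressed mean. The measure rests on 4 arrays and says nothing of shared function or control. For Fos they were Vom2r53, of the vomeronasal receptor family, at a distance of 0.182, Vgf, a secreted neuropeptide precursor, at 0.466, and Atf3, a stress-induced factor, at 0.477, where Vom2r53 and Atf3 had both unstressed readings within the control range. A distance that uses such readings rests on a baseline not shown to lie above background. For Fosb they were Iqub at 0.280, then Nr4a3 at 2.32 and Fam110c at 2.62, and the unstressed readings of Iqub, like those of Fosb, were both within the control range. For Fosl1 they were Ptges, a prostaglandin E synthase, at 0.125, Arih1, a ubiquitin ligase, at 0.156 and Gls2, a glutaminase, at 0.317. For Fosl2 they were the immediate early gene Ier2 at 0.186, the calcineurin regulator Rcan2 at 0.189 and the cystine transporter Slc7a11 at 0.191. For Junb they were Ndufa5, a subunit of respiratory complex I, at 0.158, the phosphatase gene Dusp14 at 0.224 and the transcription factor Grhl1 at 0.227.

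Among genes of other leucine zipper factors that can join or compete with AP-1, 6 of the 12 with a probe set rose and 0 fell without the filter, where 7.56% of all genes rose. The list held 15 genes, and with the filter 7 were tested, of which 6 rose and 0 fell, against 11.2% rises over all tested genes. That count with the filter is no support on its own, since Atf3 and Maff passed it through their immobilized values. The 12 had a median change of 0.69 without the filter, beside -0.11 over all named genes. Atf3 read 4737 and 6921 on the immobilized arrays and 178 and 102 on the unstressed arrays, where both were within the control range. Against the highest control reading of each unstressed array it was at least 27.8-fold higher (fitted log2 difference 5.24 ± 0.32). Maff, a small Maf protein, read 8538 and 9041 in the immobilized group and 181 and 305 in the unstressed group, a change of 5.13 ± 0.27, with 1 unstressed reading within the control range. Atf4, the effector of the integrated stress response, rose by 1.57 ± 0.14. Maf, Mafg and Mafk rose too, by 0.68, 0.69 and 1.27. Atf2, which pairs with Jun at CRE-like sites, had a difference of -0.23 ± 0.23. The genes Jdp2, Batf, Batf2 and Batf3, under the filter, had differences of -0.88 to -0.18, whereas Mafa, also under it, had 0.80. When immobilized 1 was left out the list had 4 rises, and when immobilized 2 was left out it had 3, with Atf3 under the filter in both.

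Of 18 genes for factors and coactivators that act on the Fos and Jun promoters, 17 were measured and tested, of which 5 rose and 6 fell, with a median of -0.09. Over all tested genes 33% were called, 11.2% as rises and 21.8% as falls. Crem, whose inducible products repress CRE-driven genes, read 59135 and 41075 in the immobilized group and 3134 and 2841 in the unstressed group, a change of 4.04 ± 0.19. Stat3, the transducer of cytokine signals that act on Fos, rose by 1.43 ± 0.13. Mef2d, of the family that binds the Jun promoter, rose by 0.88 ± 0.16, with an adjusted p of 0.0589 once immobilized 1 was left out and 0.0997 once immobilized 2 was (limma). Crtc3, a CREB coactivator, read 1574 and 1494 in the immobilized group and 5336 and 7094 in the unstressed group, and fell by 1.99 ± 0.18 on the log2 scale. Mef2c fell by 1.32 ± 0.17, and Crtc1 fell by 0.94 ± 0.22, which did not pass when either immobilized array was dropped (adjusted p = 0.0571 and 0.133, limma). Atf1 and Ep300 had differences of 0.32 ± 0.12 and -0.09 ± 0.12 and did not pass, and the other Ep300 probe set had 0.30. Atf1 passed after median centring (0.46, adjusted p = 0.0427 in limma), and Ep300 then had the opposite sign, 0.05. Dropping immobilized 1 left the list 3 rises and 2 falls, and dropping immobilized 2 left 2 and 3. After median centring it had 7 rises and 4 falls. Without the filter it had 5 rises and 4 falls, against 7.56% and 13.9% over all genes. The counts without the intensity trend were also 5 and 4.

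Among kinases that phosphorylate AP-1 proteins or lead to that step, 12 of 18 genes were measured and tested, of which 1 rose and 3 fell, with a median of 0.06. These 4 calls are the same share as the 33% called over all tested genes. Rps6ka3, the growth factor activated kinase RSK2, rose by 0.76 ± 0.16, with 0.53 and 1.43 on its other probe sets. Map3k1, an upstream activator of JNK, the Jun N-terminal kinase, fell by 1.05 ± 0.13 on the log2 scale. Mapk14, the p38 alpha kinase, fell by 0.72 ± 0.14, and Mapk9, JNK2, fell by 0.61 ± 0.18 on its brightest probe set, with a change of -1.38 on its other one (adjusted p = 0.0158 in limma). Map2k1 and Csnk2a1 had differences of 0.29 ± 0.12 and -0.31 ± 0.12 and did not pass, and the 4 other probe sets of Csnk2a1 ranged from -0.61 to 0.16. The counts of this list, and the calls on Mapk9, Rps6ka3 and Mapk14, depended on the scaling or on single arrays. After median centring the list had 4 rises and 2 falls and after quantile normalization 2 and 2. Dropping immobilized 1 left 0 rises and 2 falls, and dropping immobilized 2 left 0 and 1. The call on the brightest Mapk9 probe set was lost under both scalings (adjusted p = 0.0889 after quantile normalization and 0.095 after centring), without either immobilized array (0.134 and 0.194) and without unstressed 2 (0.0906). That on Rps6ka3 was lost without immobilized 1 (0.0882) or immobilized 2 (0.124), and that on Mapk14 without immobilized 2 (0.065).

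Of 13 genes for the turnover of Fos and Jun mRNA or protein, 12 were measured and tested, 3 rose and 1 fell, with a median of 0.11. This too is the share called over all tested genes, 33%. Zfp36, which encodes tristetraprolin and promotes decay of AU-rich mRNAs such as that of Fos, read 19062 and 19987 in the immobilized group and 5218 and 6102 in the unstressed group. It rose by 1.79 ± 0.13 (adjusted p = 3.05e-04 in limma) and was the one call of this list that remained with either immobilized array left out. Cnot6l, a deadenylase subunit gene, had 0.63 ± 0.19 and Elavl1, whose product HuR stabilizes AU-rich mRNAs, 0.58 ± 0.12, with 0.55 and 0.08 on its other probe sets. Det1, an adaptor of the COP1 ubiquitin ligase that degrades Jun, fell by 1.23 ± 0.31. Cnot6l, Elavl1 and Det1 did not pass when immobilized 1 was dropped (adjusted p = 0.0792, 0.082 and 0.0581, limma) or when immobilized 2 was (0.274, 0.0679 and 0.166). Those on Cnot6l and Det1 were also lost without the filter (0.0597 and 0.0528). Cnot6l was lost as well without unstressed 1 (0.0528) and without the intensity trend (0.0571). Zfp36l1 and Khsrp had differences of 0.40 ± 0.21 and -0.12 ± 0.17, and that of Khsrp was 0.02 after median centring. Fbxw7, part of a ubiquitin ligase for Jun, had 0.11 ± 0.25, and Cop1 had 0.05 ± 0.19, with -1.58 and -0.03 on its other probe sets.

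Of 38 genes described in textbooks as AP-1 targets, 35 had a probe set and 27 were tested, of which 16 rose and 3 fell, against 11.2% rises and 21.8% falls over all tested genes. Without the filter 15 of the 35 rose and 1 fell, against 7.56% and 13.9% over all genes, with a median of 0.81. The count with the filter is no support on its own. Nts, Plaur, Hbegf and Ccl2 passed it through their immobilized values, as their unstressed readings all lay under its intensity of 544. The neuropeptide gene Nts had the largest fitted rise of the list, 5.26 ± 0.57, and 1 of its unstressed readings was within the control range. Cdkn1a, the p21 cell cycle inhibitor, rose by 3.13 ± 0.19, and its other probe set had a change of 5.46. Penk, the proenkephalin gene, read 30733 and 20979 in the immobilized group and 1190 and 7891 in the unstressed group. Its rise of 3.04 ± 0.76 did not pass when immobilized 1 or 2 was dropped (adjusted p = 0.155 and 0.113, limma) or with robust variances (0.0542). Th, the tyrosine hydroxylase gene, read 68379 and 44651 in the immobilized group and 54049 and 55633 in the unstressed group, a difference of 0.01 ± 0.22. It was brighter than Jun's 1389528_s_at, around which differences between the groups were small in general. The part of this brightness in the Th value was not tested. Spp1, which encodes osteopontin, had -0.36 ± 0.22. It passed after quantile normalization (-0.33, adjusted p = 0.0484 in limma).

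Among the falls, that of Dnmt1, the maintenance DNA methyltransferase, was -1.63 ± 0.15. Met, the receptor of hepatocyte growth factor, had -1.29 ± 0.39 and Gclm, a glutathione synthesis subunit, -0.72 ± 0.21. Both of these calls were lost after quantile normalization (adjusted p = 0.067 for Met and 0.0888 for Gclm in limma), after median centring (0.0592 and 0.0898), without the filter (0.0776 and 0.0581), without the intensity trend (0.0608 and 0.0517), and without immobilized 1 (0.214 and 0.18), immobilized 2 (0.161 and 0.178) or unstressed 2 (0.1 and 0.13). The matrix metalloproteinase genes Mmp3, Mmp9, Mmp10, Mmp12 and Mmp13 all lay under the filter. Without immobilized 1 the list had 9 rises and 1 fall, and the counts were the same without immobilized 2.

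**Figure D4:**
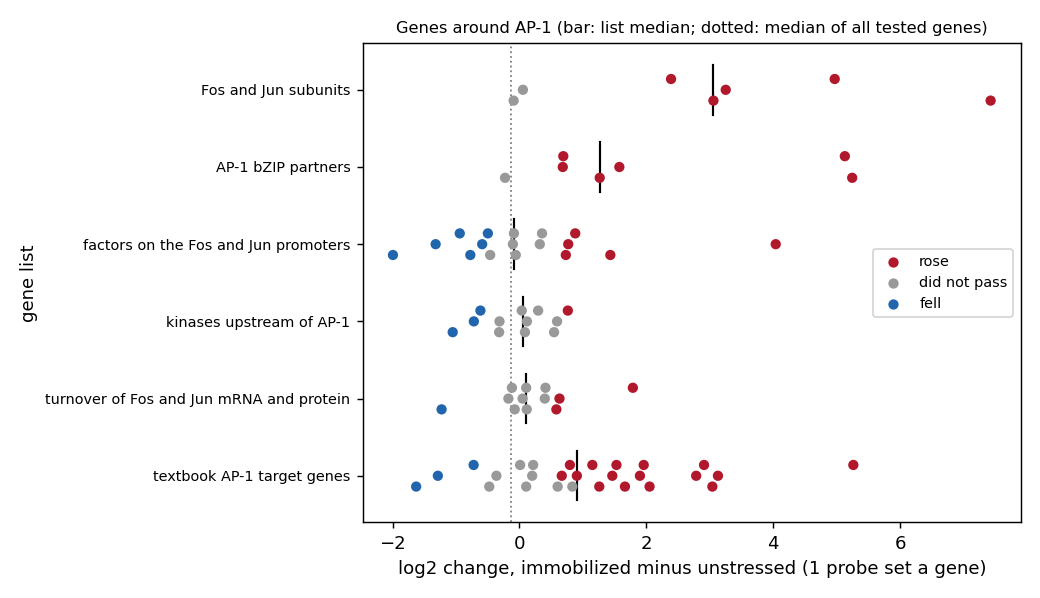
Log2 change, immobilized minus unstressed, of each gene by list, with 1 probe set a gene; red genes rose, blue genes fell and grey genes did not pass. Black bars are list medians, from 3.06 for the Fos and Jun subunits to -0.09 for the factors on the Fos and Jun promoters, and the dotted line is the median of all tested genes, -0.14.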

How the data were processed

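Expression was measured on 4 arrays of rat adrenal medulla, grouped by the submitters' descriptions into 2 immobilized and 2 unstressed samples. Replicate numbers follow accession order and pair no samples. The deposited values are linear intensities, 1 per probe set and array; the probe summary method was not stated by the authors in the labels. Every deposited column had, within 0.00572%, a trimmed mean of 2501 (2% left out at each end), so no further normalization was applied. There were 0 unused sample columns. The number of arrays limits the precision.

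The 57 control probe sets were left out, and log2(intensity + 16) was taken, a scale on which changes of dim genes come out too small. A filter at the 40th percentile of the mean, an intensity of 544, left 18625 of 31042 for testing. Names came from GEO's annotation of the platform: 20826 probe sets had 1 symbol, 436 several and 9780 none. A gene was represented by its brightest probe set. The comparison used lmFit and eBayes (trend on, two-sided) of limma 3.58.1 under R 4.3.3, and p-values were adjusted by Benjamini-Hochberg over the whole tested table. The scripts were tested on simulated data. From each list, the text names the 3 largest called rises, the 3 largest called falls and the 2 brightest genes that were not called. Maf, Mafg, Mafk, Fbxw7, Cop1 and the Mmp genes were added after their values were seen. Jdp2, Mafa, the Batf genes, Plaur, Hbegf and Ccl2 are also named outside that rule. Members, lists and rules were chosen with earlier results of these data known. Protein sequences were not used here. Alternatives were quantile normalization, median centring, offsets of 1 and 64, no filter or one at the 60th percentile, robust variances or no intensity trend in eBayes, a threshold of 0.10, averaging the probe sets of a gene, and leaving out each array. Plots were drawn with matplotlib 3.10.9.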

Additional observations from a re-analysis of the deposited data

How the results depend on the processing

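Of the 7 called Fos and Jun probe sets, 83 of the 85 recomputed values kept their call, and the other 2 were the Jun probe set 1374404_at without immobilized 1 or 2 (0.87 and 1.09). The 85 leave out the settings under which a probe set or its gene was not tested, which concerned Fos, Fosb and Fosl1. They include the Fosb values without the filter that were added after seeing the data. With a filter at the 60th percentile 3 subunit genes were called, since Fosb and Fosl1 were then not tested, and averaging the probe sets of a gene also gave 3, since Fos and Fosb lay under the filter. Leaving out an array gave 4 to 5 called subunit genes and 5 to 7 called probe sets. Fosb fell under the filter without either immobilized array; an alternative added after seeing the data, with no filter, gave 5 called genes in both cases and a Fosb change of 7.67 and 7.18. An offset of 1 or 64 gave Fosb 7.88 and 6.53.

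The sign of the values near 0 was not stable. With 1 array left out, the brightest Jun probe set ranged from -0.13 to 0.24, Jun 1369788_s_at from -0.17 to 0.062, Jund 1393138_at from -0.31 to 0.13, Jund 1387762_s_at from -0.81 to 0.72 and the dim Fos probe set from -0.16 to 0.29. After median centring Jun 1369788_s_at had 0.086, Jund 1393138_at 0.048 and Jund 1387762_s_at 0.093. Jund 1387762_s_at had 0.10 after quantile normalization, and Jund had 0.22 with its probe sets averaged. The median over all tested probe sets was 0.02 after centring and -0.12 before it. The cause of these shifts was not tested.

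Called genes with an array left out numbered 3 to 6 for the leucine zipper partners, 5 to 10 for promoter factors, 1 to 5 for kinases, 1 to 4 for turnover and 10 to 21 for targets. Without the filter the turnover list had 2 calls. No paired analysis was possible because the labels give no replicate numbers that the groups share.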
